A study of Mus musculus with 6 samples.

Results

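The mouse major histocompatibility complex, named H2, was examined in bulk RNA-seq of the endothelial cell lines bEnd.3 and UV2. Members were all rows of the deposited count table whose gene symbol begins with H2-, which gave 43 of 24411 genes. They were grouped by where the genes lie and what they encode: 4 classical class I rows of the K and D regions, 9 Q, 7 T and 12 M rows of class Ib, 10 class II rows, and H2-Ke6. Each line had 3 libraries, with total expected counts of 21306441 to 28748128. The labels give BALB/c as the strain of bEnd.3, a line of brain endothelium made with the middle T antigen of polyomavirus. UV2, also written UV♀2, has the strain (BALB/c x C57BL/6)F1. All cells had been grown to confluence, washed, kept in serum-free culture for 3 days and detached with trypsin-EDTA. Each line is a single line of its strain, so line, immortalisation and strain cannot be told apart. Separate cultures are nowhere stated for the libraries, so every p-value rests on spread between libraries that may be technical.

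Class I molecules pair a heavy chain with beta-2 microglobulin and display peptides from inside the cell to CD8 T cells and natural killer cells. H2-K and H2-D encode the classical, highly polymorphic heavy chains. The Q, T and M regions encode class Ib chains, which are less variable and often have narrower roles. Class II molecules pair an alpha with a beta chain, display peptides from endosomes to CD4 T cells, and depend on the coactivator CIITA, while NLRC5 has the like role for class I. In endothelium class I is constitutive and class II is usually low unless induced by interferon gamma. BALB/c mice carry the d haplotype of H2 and C57BL/6 mice the b haplotype, and haplotypes differ in both sequence and gene content.

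The submitters aligned to mm10, a C57BL/6 genome and so the b haplotype. One parent strain of UV2 matches this reference in H2, and the labelled strain of bEnd.3 does not. A lower count in bEnd.3 can therefore be a lower transcript level or BALB/c reads that were not assigned to the row, and these cannot be told apart here. The coding stretches below show how alike the reference copies are, and why reads can be shared among them. They are the first 60 bases of coding exon 2 of H2-D1, which begins the peptide-binding alpha-1 domain, and the most alike coding window of the same length in other members. The H2-D1 window is chr17:35263379-35263438 on the plus strand and that of H2-K1 is chr17:33999944-34000003 on the minus strand (GRCm38, GENCODE M21). Capitals mark bases that differ from H2-D1.
H2-D1: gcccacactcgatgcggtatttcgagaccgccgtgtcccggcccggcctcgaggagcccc
H2-K1: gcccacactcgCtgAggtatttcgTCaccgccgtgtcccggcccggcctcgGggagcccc
H2-Q4: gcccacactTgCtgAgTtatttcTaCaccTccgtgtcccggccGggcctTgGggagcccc
H2-Q6: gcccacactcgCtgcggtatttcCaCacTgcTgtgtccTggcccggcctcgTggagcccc
H2-Q7: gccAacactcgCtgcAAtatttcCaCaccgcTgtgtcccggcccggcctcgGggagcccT
H2-T23: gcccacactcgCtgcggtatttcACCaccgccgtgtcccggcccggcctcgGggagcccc
H2-T24: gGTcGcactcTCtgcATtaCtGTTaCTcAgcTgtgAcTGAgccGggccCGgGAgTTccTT
H2-M3: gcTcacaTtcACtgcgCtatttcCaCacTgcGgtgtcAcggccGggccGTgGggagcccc

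H2-K1 and H2-T23 differed from H2-D1 at 5 of these 60 bases each, H2-Q6 at 7, H2-Q7 at 9, H2-Q4 at 10, H2-M3 at 14 and H2-T24 at 28. The same comparison was made at the first 60 bases of H2-D1 coding exon 4 (chr17:35265784-35265843, plus strand), which encodes the start of the alpha-3 domain. It is shown for the closeness of H2-Q6 and H2-Q7, which H2-Q4 did not share.
H2-D1: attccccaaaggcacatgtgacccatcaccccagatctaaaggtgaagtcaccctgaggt
H2-K1: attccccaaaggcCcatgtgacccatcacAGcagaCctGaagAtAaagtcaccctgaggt
H2-Q4: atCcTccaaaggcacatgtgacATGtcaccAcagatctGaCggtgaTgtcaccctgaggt
H2-Q6: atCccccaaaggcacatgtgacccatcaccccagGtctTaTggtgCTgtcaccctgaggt
H2-Q7: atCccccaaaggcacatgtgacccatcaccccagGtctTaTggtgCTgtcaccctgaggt
H2-T23: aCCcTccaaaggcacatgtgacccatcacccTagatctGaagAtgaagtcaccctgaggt
H2-T24: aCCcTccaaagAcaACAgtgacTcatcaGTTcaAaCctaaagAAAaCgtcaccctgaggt
H2-M3: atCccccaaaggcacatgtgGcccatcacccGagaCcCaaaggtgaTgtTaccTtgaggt

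Here H2-Q6 and H2-Q7 had the same letters, each with 6 differences from H2-D1. H2-T23 also differed at 6 bases, H2-K1 at 7, H2-M3 at 8, H2-Q4 at 9 and H2-T24 at 17. Over whole aligned coding sequences H2-D1 was 91.5% identical to H2-K1, 90.4% to H2-Q4, 81.1% to H2-T23, 72.7% to H2-M3 and 63.5% to H2-T24, and H2-Q6 was 95.4% identical to H2-Q7.

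RSEM splits a read that fits several genes, which can give values that are not whole. Of 31 members with any count, 22 (71%) had such a value in at least 1 library, against 16.9% of all genes with a count. As a measure from the reference alone, the transcript of each member with the longest coding part (for pseudogenes, the longest) was cut into windows of 50 bases, and windows also found in a transcript of another gene were counted. This share was 8.79% for H2-K1, 14.3% for H2-D1, 24.3% for H2-Q4, 40.2% for H2-Q7 and 44.7% for H2-T22, whose nearest copy was H2-T10. It was 3.23% for H2-T24, 0.576% for H2-M3 and 0 for H2-DMa and H2-Bl. The 2 measures did not always go together: H2-Bl had values that were not whole in 4 libraries, and H2-Ke6, with 62.9% of windows shared, had none. H2-L, H2-T9, H2-Q8 and H2-Q9 had no entry in the transcript set used.

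Levels below are in CPM (counts relative to the TMM-adjusted size of each library) in the order of replicates 1, 2 and 3. Differences on the log2 scale have the sign of UV2 minus bEnd.3, with 3 libraries a line. Their standard error (SE) was taken from the log2 fold change and the test statistic, so it is not independent of the p-value. The quasi-likelihood test of edgeR gave the p-values, adjusted by Benjamini-Hochberg over all 12720 genes tested, and a gene is called at an adjusted p under 0.05. Of all tested genes 67.1% were called, 33.9% higher and 33.3% lower in UV2, and 73.2% had libraries that did not overlap between the lines. Of the 43 members, 12 had 0 counts in every library, 9 more had too few counts to be tested and 22 were tested. Among those tested, 20 were higher in UV2 (H2-K1 and H2-D1 among them), H2-T24 was lower, and H2-T10 did not pass. All 22 had libraries that did not overlap, 21 of them with UV2 higher, where 36.5% of all tested genes had that order. Their median log2 fold change was 2.07, beside -0.01 over all genes. Of the 22, 5 (H2-Q1, H2-Q2, H2-Q6, H2-Q10 and H2-Bl) reached the count filter only through UV2 libraries and so had to differ. H2-Q7 reached it in 2 bEnd.3 libraries and H2-Q9 in 1, and both in all 3 UV2 libraries. These rows too depended on UV2 libraries to be tested. In 15 members every library of both lines reached it, and of these 13 were higher, 1 lower and 1 not called.

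**Figure D1:**
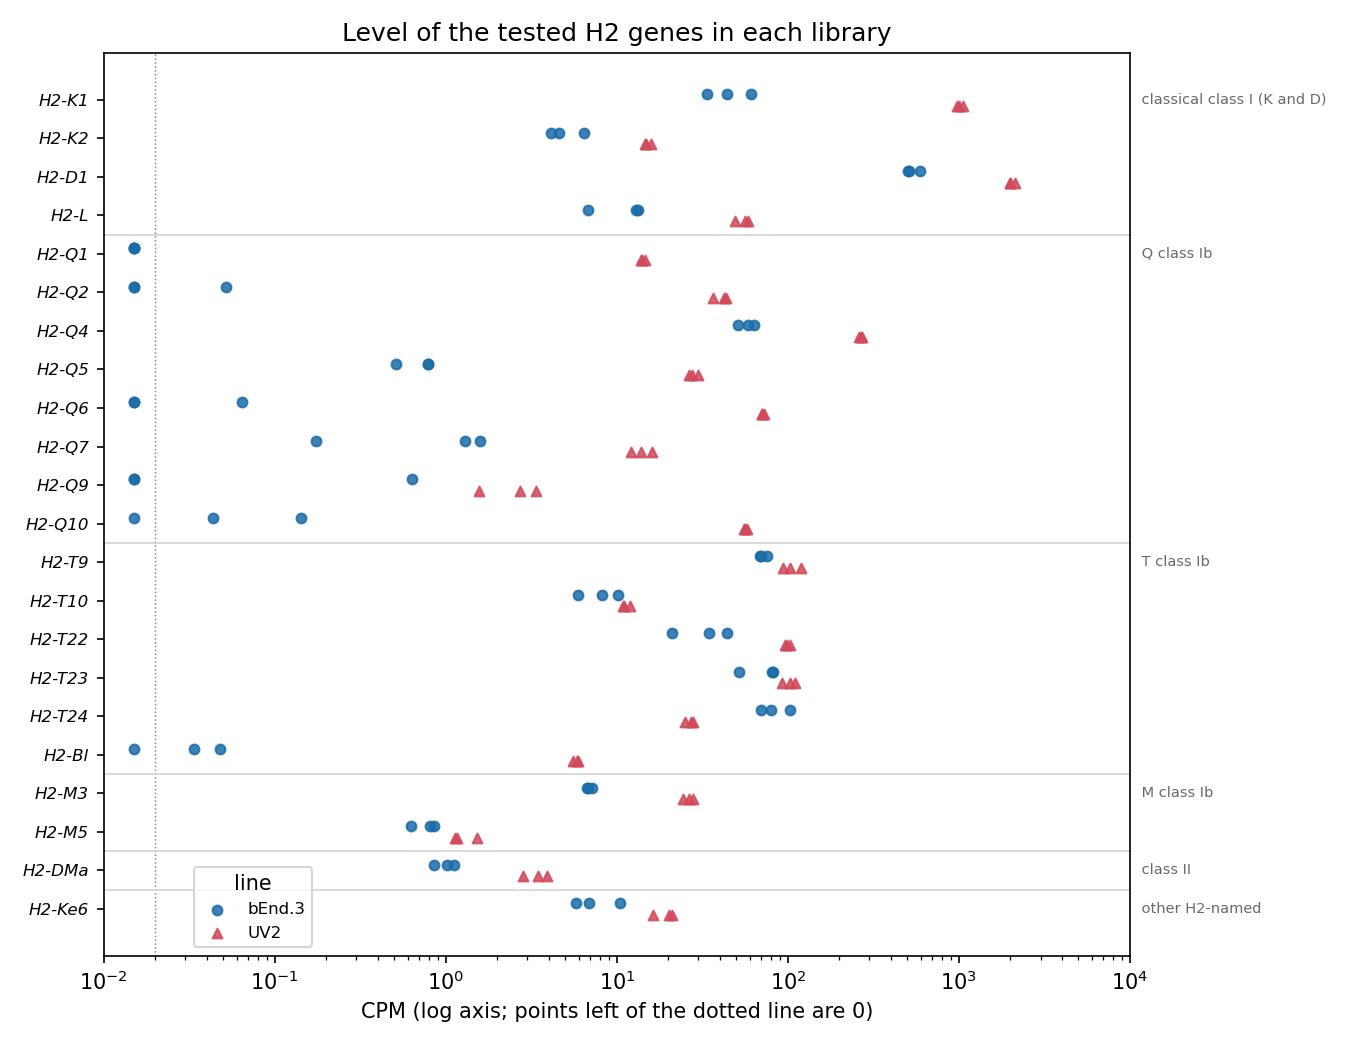
Level in CPM (log axis) of the 22 tested H2 genes, by subregion; each circle is a bEnd.3 library and each triangle a UV2 library, and points left of the dotted line are 0. UV2 libraries lie to the right of bEnd.3 libraries for all genes but H2-T24.

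The classical heavy chains made up most of the class I signal in both lines, and all 4 rows of the K and D regions were higher in UV2. H2-K1 (chr17:33996012-34000619), which encodes the K chain, stood at 61.1, 33.6 and 43.9 CPM in bEnd.3 and at 1060.1, 971 and 1006 CPM in UV2. The 2 ranges lay far apart, and the log2 fold change was 4.45 (SE 0.21, adjusted p = 1.77e-06), 21.9-fold. H2-D1 (chr17:35263094-35267497), which encodes the D chain, had 591, 502 and 514 CPM in bEnd.3 and 2001, 1985 and 2119 CPM in UV2. It was 3.80-fold higher, a log2 fold change of 1.93 (SE 0.09, adjusted p = 1.38e-06). H2-L, a D-region chain of the d haplotype, was at 12.9, 6.77 and 13.3 CPM in bEnd.3 and 49.04, 58.2 and 56.2 CPM in UV2. That is a log2 fold change of 2.31 (SE 0.23, adjusted p = 7.93e-05), 4.95-fold. H2-L has no transcript in the set used, so the windows it shares with H2-D1 were not measured. Which gene the reads in its row came from cannot be told here. H2-K2 (chr17:33974659-33978791), annotated as a pseudogene, was low in both lines, at 4.59, 4.11 and 6.46 CPM in bEnd.3 and 15.9, 14.5 and 14.9 CPM in UV2, a difference of 1.57 on the log2 scale (SE 0.18). All 4 rows had values that were not whole in all 6 libraries.

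Ordered per length (CPM per kb of that same transcript), the classical pair stood differently in the lines. H2-D1 ranked highest in both, at 255 ± 23.1 CPM per kb in bEnd.3 and 968 ± 34.7 in UV2 (mean ± SD, n = 3). In bEnd.3, H2-T23 followed at 48.5 ± 11.7 CPM per kb, H2-T24 at 38.5 ± 7.85, H2-Q4 at 32.2 ± 3.40 and H2-K1 at 28.5 ± 8.59. The ranges of these neighbours overlapped, so their order among themselves was not resolved. In UV2, H2-K1 was next after H2-D1 at 625 ± 27.8 CPM per kb, ahead of H2-Q4 at 148 ± 2.54, H2-T23 at 69.1 ± 5.88 and H2-T22 at 56.5 ± 1.71, and no neighbouring ranges overlapped down to H2-T22. H2-T24 stood at 12.2 ± 0.713 CPM per kb in UV2, rank 12 of the 39 members with a transcript. H2-T9, with no transcript length, is in neither order.

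The 9 Q rows included the largest differences among members. Q genes encode class Ib chains, among them the membrane-anchored Qa-2 antigen (H2-Q6, H2-Q7, H2-Q8 and H2-Q9), and the secreted chain Q10, known from liver. H2-Q4 (chr17:35379617-35384674), the most abundant, had 51.3, 58.5 and 63.5 CPM in bEnd.3 and 269.5, 261 and 268 CPM in UV2. It was 4.60-fold higher, a log2 fold change of 2.20 (SE 0.09, adjusted p = 7.1e-07).

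Several Q rows were at or near 0 in bEnd.3. H2-Q1 (chr17:35320525-35328142) had 0 counts in every bEnd.3 library and 13.9, 14.7 and 14.1 CPM in UV2. This is at least 361-fold higher when bEnd.3 is set to a floor of 3 counts summed over its libraries (0.0393 CPM). H2-Q2 (chr17:35342307-35346764) held 1.16 counts in bEnd.3, all in replicate 1, and 43.4, 42.1 and 36.3 CPM in UV2, and the ratio was 3083 (95% counting interval 553 to 121810). H2-Q6 (chr17:35424850-35430055) held 1.59 counts, all in bEnd.3 replicate 2, and 70.7, 72.5 and 70.6 CPM in UV2, and the ratio was 2717 (95% counting interval 752 to 22439). The intervals, from rounded counts, and the floor cover counting error only. H2-Q10 (chr17:35470089-35474563) had 5.29 counts in bEnd.3, with 0, 0.0436 and 0.143 CPM, and 57.9, 55.9 and 55.7 CPM in UV2. Its fitted log2 fold change, given with no test because the row reached the filter only through UV2, was 9.65, and 11.05 without bEnd.3 replicate 3. These 4 rows had counts in every UV2 library and at most a few in bEnd.3, while H2-Q4 between them was well detected in both.

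The other Q rows were low in bEnd.3. H2-Q5 (chr17:35394099-35395630), annotated as a pseudogene, rose from 0.509, 0.790 and 0.791 CPM to 30.01, 26.4 and 27.5 CPM (log2 fold change 5.33, SE 0.17, adjusted p = 2.29e-07). H2-Q7 (chr17:35439140-35443773) had 0.174, 1.59 and 1.29 CPM in bEnd.3 and 13.9, 16.03 and 12.2 CPM in UV2, a difference of 3.74 on the log2 scale (SE 0.45, adjusted p = 0.000199). H2-Q7 was lowest in bEnd.3 replicate 1, the only bEnd.3 library in which H2-Q9, another Qa-2 gene, had counts. H2-Q9 had 0.636, 0 and 0 CPM in bEnd.3 and 2.72, 1.55 and 3.37 CPM in UV2. Its log2 fold change of 3.73 (SE 0.89, adjusted p = 0.0066) was 8.99 without bEnd.3 replicate 1, 3.15 without replicate 2 and 3.05 without replicate 3, and DESeq2 did not call it (adjusted p = 0.1). H2-Q7 and H2-Q9 both needed UV2 libraries to reach the filter. H2-Q8 had 0 counts in all 6 libraries. The Q rows summed to 52.7, 61.0 and 65.7 CPM in bEnd.3 and 502, 490.1 and 488 CPM in UV2, 8.25-fold higher on the means.

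The T rows had the smallest ratio of summed levels of the class I subregions, a sum that sets H2-T24, the only member lower in UV2, against the others. H2-T24 (chr17:36003471-36020800), a class Ib gene, had 69.4, 79.5 and 102.8 CPM in bEnd.3 and 27.2, 27.9 and 24.9 CPM in UV2. Every bEnd.3 library lay above every UV2 library, and the gene was 3.15-fold lower in UV2, a log2 fold change of -1.66 (SE 0.14, adjusted p = 3.59e-05). H2-T23 (chr17:36029977-36032701) encodes Qa-1, the chain recognised by the CD94 and NKG2A receptor of natural killer cells. It had 51.6, 82.2 and 80.4 CPM in bEnd.3 and 92.4, 103 and 109.5 CPM in UV2. The log2 fold change was 0.51 (SE 0.17, adjusted p = 0.0288), and the call was lost without UV2 replicate 2 (adjusted p = 0.0723) or UV2 replicate 3 (adjusted p = 0.0736).

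H2-T22 (chr17:36037128-36042742) and H2-T10 (chr17:36115871-36121444) are close copies known for ligands of some gamma-delta T cells, and RefSeq annotates H2-T10 in this reference as a transcribed pseudogene. H2-T22 had 21.03, 34.7 and 44.2 CPM in bEnd.3 and 96.4, 102.5 and 99.5 CPM in UV2, a difference of 1.57 on the log2 scale (SE 0.23, adjusted p = 0.00052). In H2-T10, 8.22, 5.94 and 10.16 CPM in bEnd.3 stood beside 10.996, 10.8 and 11.9 CPM in UV2, a difference of 0.47 on the log2 scale (SE 0.19, adjusted p = 0.0572). H2-T10 passed with DESeq2 (adjusted p = 0.0445), without the filter (adjusted p = 0.0481), with the replicate number as a block (adjusted p = 0.0299) and without bEnd.3 replicate 3 (adjusted p = 0.0133). Because 40.2% of the H2-T10 windows were also in H2-T22, a split of counts between the 2 rows is uncertain.

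H2-T9 had 75.3, 69.4 and 68.4 CPM in bEnd.3 and 102.9, 93.9 and 119 CPM in UV2, a difference of 0.57 on the log2 scale (SE 0.10, adjusted p = 0.00119). H2-Bl (chr17:36080110-36084249), annotated as a pseudogene, held 2.18 counts in bEnd.3 and 5.95, 5.87 and 5.52 CPM in UV2, and the ratio was 220 (95% counting interval 60.5 to 1823). H2-T3, which encodes the thymus leukaemia antigen of intestinal epithelium, was too scarce for the test, with 2 counts in bEnd.3 and 6 in UV2. Summed over the T rows the level was 226, 272 and 306 CPM in bEnd.3 and 336, 344 and 371 CPM in UV2, 1.31-fold higher on the means.

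Most M rows were silent. Of 12, 10 had 0 counts in every library, including all 6 H2-M10 genes, which with H2-M1 and H2-M9 are known from the vomeronasal organ. H2-M3 (chr17:37270234-37274485) encodes the chain that presents N-formylated peptides of bacteria and mitochondria. It had 7.13, 6.77 and 6.70 CPM in bEnd.3 and 27.7, 26.5 and 24.5 CPM in UV2, with little spread within either line. The log2 fold change was 1.94 (SE 0.10, adjusted p = 2.18e-06), close to that of H2-D1, in a row that shared few windows with other genes. H2-M5 (chr17:36983785-36997955) was near the limit of the test, at 0.628, 0.814 and 0.849 CPM in bEnd.3 and 1.52, 1.16 and 1.14 CPM in UV2, a difference of 0.72 on the log2 scale (SE 0.25, adjusted p = 0.0356). That call was lost with DESeq2 (adjusted p = 0.131), with total counts (0.0542), without the filter (0.0557), with the replicate block (0.078) and when any library other than UV2 replicate 3 was left out (0.0584 to 0.118).

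The level was also summed over all 32 class I rows, which keeps reads that moved between these rows. The sum was 956, 886 and 957 CPM in bEnd.3 and 3993, 3890.3 and 4081 CPM in UV2. The UV2 mean was 4.27-fold the bEnd.3 mean, a log2 ratio of 2.10. The sum of rows other than H2-K1 and H2-D1 was 304, 351 and 399 CPM in bEnd.3 and 932, 935 and 956 CPM in UV2, 2.68-fold higher on the means. A sum over members was given no test. Reads that moved to copies with other names are not kept in the sum. An example is Gm11127, the gene that shared most windows with H2-K2. Reads of bEnd.3 that fit no row of the reference are missing from the sum too.

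H2-D1 was the largest part of the summed class I level in each line, at 57.4% ± 4.13 in bEnd.3 and 51.0% ± 0.907 in UV2. H2-K1 made up 4.93% ± 1.34 in bEnd.3 and 25.4% ± 1.02 in UV2. The shares of H2-T24 were 8.99% ± 1.74 and 0.669% ± 0.0540, and those of H2-T23 were 7.69% ± 2.03 and 2.55% ± 0.205. H2-Q4 took 6.20% ± 0.719 and 6.68% ± 0.0946. These shares are of counts, not of molecules per length.

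**Figure D2:**
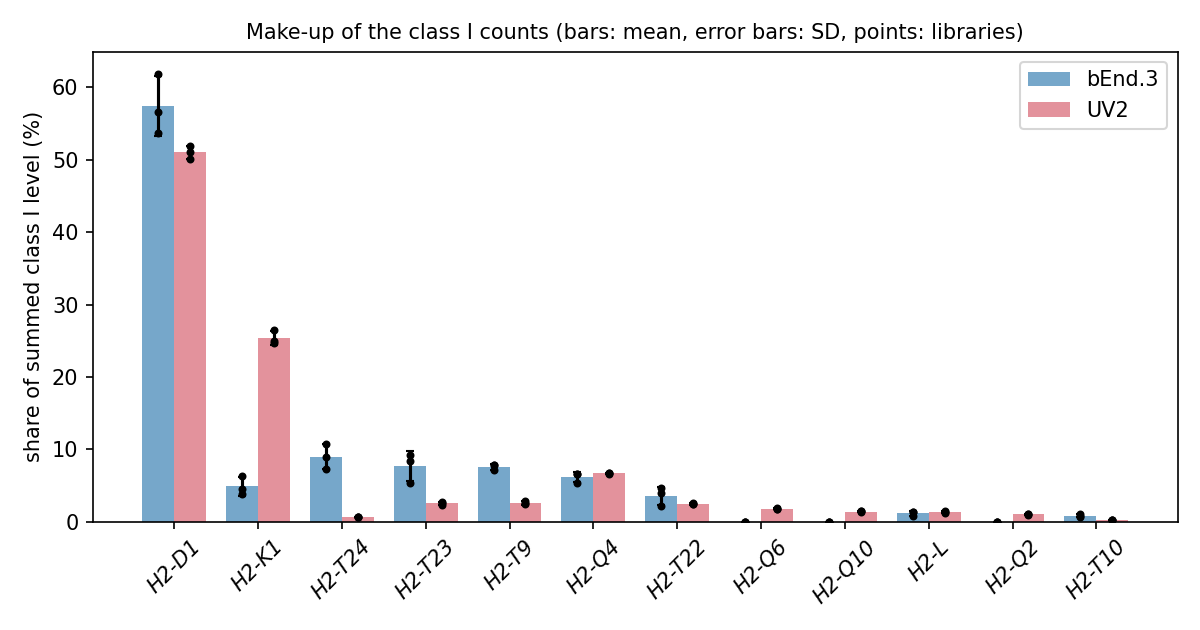
Share of the summed class I level (percent) for the 12 members with the largest shares; bars are means, error bars the SD over 3 libraries and points the libraries. H2-K1 goes from 4.93% in bEnd.3 to 25.4% in UV2, while H2-D1 is above 50% in both.

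Across the tested members with a transcript (19 of 22), differences between the lines were found at high and at low shares of windows common to other genes. The highest shares were those of H2-Ke6 (62.9%), H2-T22, H2-T10, H2-Q7 and H2-Q5 (40.1%), with log2 fold changes from 0.47 in H2-T10 to 5.33 in H2-Q5. H2-K1 (8.79%), H2-M3 (0.576%) and H2-T24 (3.23%), with few shared windows, had log2 fold changes of 4.45, 1.94 and -1.66. H2-Q2, H2-Q10 and H2-Bl, which had few counts in bEnd.3, also had few shared windows (8.74%, 8.03% and 0). The share was computed on the b haplotype only, and the distance of d-haplotype alleles from it was not tested.

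**Figure D3:**
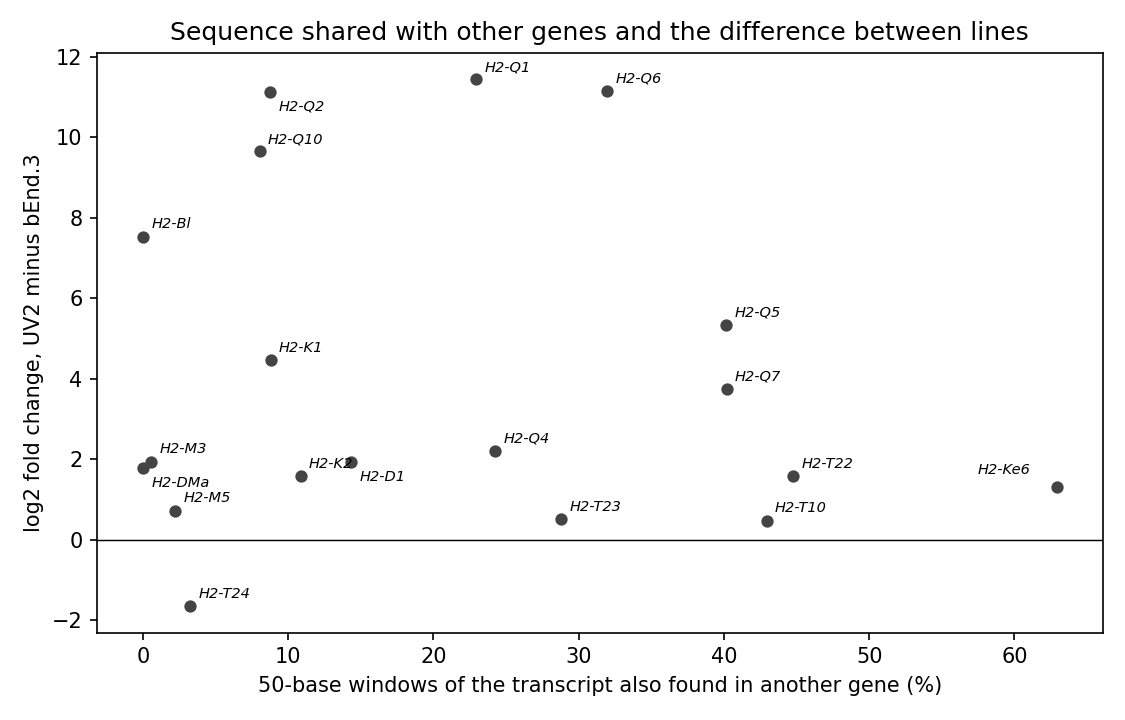
Percent of 50-base transcript windows also found in another gene (horizontal) against the log2 fold change, UV2 minus bEnd.3 (vertical), for the 19 tested H2 genes with a transcript. Fitted values of genes near 0 in bEnd.3 (H2-Q1, H2-Q2, H2-Q6, H2-Q10 and H2-Bl) depend on the prior count, and H2-T24 alone lies below 0.

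Class II transcripts were scarce in both lines, and the 1 row that could be tested was higher in UV2. H2-DMa (chr17:34119693-34139101), the alpha chain of the DM peptide exchanger, was the only class II row with enough counts to be tested. It had 1.12, 1.02 and 0.849 CPM in bEnd.3 and 3.46, 2.81 and 3.89 CPM in UV2, a difference of 1.78 on the log2 scale (SE 0.22, adjusted p = 0.000223). Its partner H2-DMb1 held 3 counts in bEnd.3 and 0.887, 0.396 and 1.09 CPM in UV2, and the ratio was 20.6 where the 95% counting interval is 6.72 to 103. The presenting chains were lower still. H2-Aa (chr17:34282744-34287823), the I-A alpha chain, had 0 counts in bEnd.3 and 6, 7 and 38 counts in UV2. H2-Ab1 (chr17:34263227-34269418), the I-A beta chain, had 1, 0 and 0 counts in bEnd.3 and 5, 10 and 29 counts in UV2. H2-Eb1, the I-E beta chain, had 0 counts in bEnd.3 and 3, 3 and 20 counts in UV2. In each of these 3 genes UV2 replicate 3 held more counts than replicates 1 and 2 together. In bulk RNA a few cells with high class II and many with little cannot be told apart.

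Without the filter on low counts, H2-Aa (adjusted p = 0.00453), H2-Ab1 (adjusted p = 0.00231), H2-Eb1 (adjusted p = 0.0124) and H2-DMb1 (adjusted p = 0.000701) were called higher in UV2. With H2-T10 gained and H2-M5 lost, the called members were then 24 higher and 1 lower. H2-Ea-ps, the I-E alpha chain that the b haplotype does not express, had 0 counts in bEnd.3 and 2 in UV2. H2-DMb2 had 0 and 5.56 counts, H2-Ob 1 and 5, H2-Oa 1 and 0, and H2-Eb2 none in any library.

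**Figure D4:**
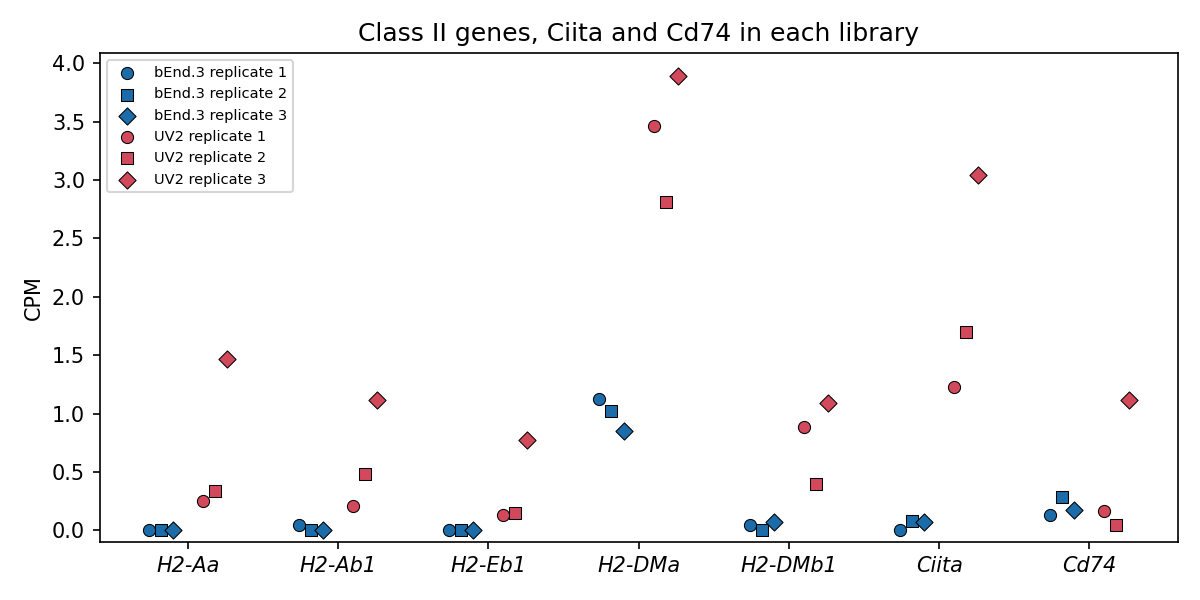
CPM in each library for 5 class II genes, the coactivator gene Ciita and the invariant chain gene Cd74; colours give the line and shapes the replicate. UV2 replicate 3 (red diamonds) is the highest point for every gene shown, and bEnd.3 points are at most 0.285 CPM except for H2-DMa.

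Ciita, the class II coactivator, had 0, 0.0814 and 0.0679 CPM in bEnd.3 and 1.23, 1.70 and 3.05 CPM in UV2, again highest in UV2 replicate 3. Its counts summed to 4 in bEnd.3 and 143 in UV2, so it reached the filter only through UV2 and its call is no support. Cd74, which encodes the invariant chain, was too scarce for the test, with 3, 7 and 5 counts in bEnd.3 and 4, 1 and 29 in UV2. A list of 10 leukocyte markers, cells that carry class II, summed to 162, 91.8 and 102 CPM in bEnd.3 and 704, 753 and 725 CPM in UV2. The UV2 sum came mainly from Lyz2 (330 ± 55.3 CPM), Cd68 (285 ± 49.8 CPM) and Itgax (108 ± 13.9 CPM). Of the 10, 5 were tested and all 5 were higher in UV2, beside 33.9% of all genes tested: Lyz2 265-fold, Itgax 154-fold, Flt3 8.80-fold, Cd14 5.30-fold and Cd68 2.47-fold. Flt3 reached the filter only through UV2. The pan-leukocyte gene Ptprc had 1 count in bEnd.3 and 0 in UV2, and the macrophage gene Adgre1 had 0 in both. By UV2 replicate, Cd68 (252, 262 and 343 CPM) and Flt3 (1.10, 1.02 and 1.43 CPM) were highest in replicate 3, as the class II chains were, and Lyz2 (356, 368 and 267 CPM) was lowest there. The part of these markers in the class II values was not tested. Endothelial markers summed to 10659 to 11114 CPM in bEnd.3 and 10885 to 12468 CPM in UV2. Of these 8, Tie1 was higher in UV2 (log2 fold change 0.88), Emcn (-1.47) and Erg (-0.35) were lower, and 5 were not called. The 7 pericyte and fibroblast markers summed to 1.79 to 3.06 CPM in bEnd.3 and 11.2 to 22.3 CPM in UV2. Pdgfra and Pdgfrb were tested and higher, the latter reaching the filter only through UV2. Acta2 had 0 counts in bEnd.3 and 39 in UV2, Cspg4 had 7 and 1, and Rgs5, Dcn and Lum were under 0.12 CPM in every library. Epithelial markers summed to at most 0.501 CPM in any library.

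H2-Ke6 (chr17:34026033-34028055) lies beside H2-K1 but encodes an oxidoreductase with no part in antigen display. It had 5.79, 6.88 and 10.42 CPM in bEnd.3 and 20.2, 16.3 and 20.97 CPM in UV2, a difference of 1.31 on the log2 scale (SE 0.22, adjusted p = 0.00109). Its nearest copy in the transcript set, Gm20427, has no row in the count table.

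The other genes of the same stretch of chromosome 17, chr17:33974659-37483554, lay on both sides of 0. Of 155 such genes, 90 were tested, and 35 were higher in UV2, 26 lower and 29 not called. That is 67.8% called and 38.9% higher, beside 67.1% and 33.9% of all genes tested, with a median log2 fold change of 0.08. These neighbours are not all unrelated to class I. Tap1, Tap2, Psmb8 and Psmb9 are among them and are counted again in the class I processing list below. Gm11127, the gene that shared most windows with H2-K2 and H2-T3, is also a neighbour. The highest fitted log2 fold changes among the neighbours were 9.40 for Gm8909 and 8.27 for Gm11127. From H2-D1 to H2-Q10 the 8 tested rows in sequence were all H2 genes higher in UV2, though 4 of them (H2-Q1, H2-Q2, H2-Q6 and H2-Q10) were tested only through UV2 libraries and could not have been lower. No test was made of the difference between H2 rows and their neighbours.

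**Figure D5:**
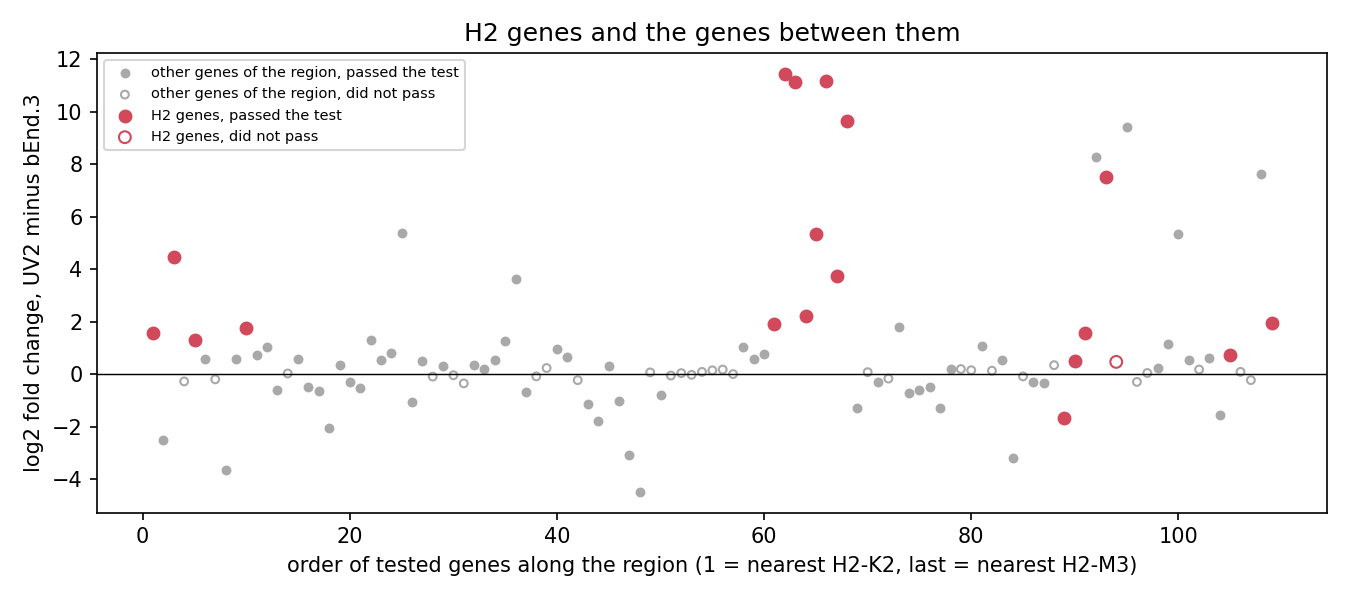
Log2 fold change, UV2 minus bEnd.3, for the tested genes of the H2 region in their order along chromosome 17; red points are H2 genes, grey points the 90 other tested genes, and open points did not pass the test. Grey points lie on both sides of 0, and red points lie above it except H2-T24.

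Promoter sequences are shown for the 2 classical genes, for H2-Q4, which was also higher in UV2, and for H2-T23, which differed little. They are the 250 bases before the transcript start of a RefSeq table entry (GRCm38.p6), 5′ to 3′. For H2-K1 that start lies inside the span given above for the gene, and for H2-D1, H2-Q4 and H2-T23 it is the outer edge of the span on the gene's 5′ side. The windows are chr17:34000348-34000597 (minus strand) for H2-K1 (1 of 2 entries), chr17:35262844-35263093 (plus) for H2-D1, chr17:35379367-35379616 (plus) for H2-Q4 and chr17:36032702-36032951 (minus) for H2-T23. Capitals mark 4 short motifs of class I promoters, searched on both strands (ATTGG reads CCAAT on the other strand): GGGGATT (kB, bound by NF-kB), AGTTTC (part of the interferon response element), TGACG (X2-like, bound by CREB and ATF factors) and ATTGG (Y box, bound by NF-Y).
H2-K1: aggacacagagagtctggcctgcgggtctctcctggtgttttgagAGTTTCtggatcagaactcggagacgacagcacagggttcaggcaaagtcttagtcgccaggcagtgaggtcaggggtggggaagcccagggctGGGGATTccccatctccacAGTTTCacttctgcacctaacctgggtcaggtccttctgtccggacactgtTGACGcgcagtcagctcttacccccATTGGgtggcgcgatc
H2-D1: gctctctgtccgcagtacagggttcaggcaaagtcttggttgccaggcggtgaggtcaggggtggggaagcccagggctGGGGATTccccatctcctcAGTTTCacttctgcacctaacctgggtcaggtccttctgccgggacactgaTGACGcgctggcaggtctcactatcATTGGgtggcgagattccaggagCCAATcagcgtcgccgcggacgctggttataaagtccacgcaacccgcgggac
H2-Q4: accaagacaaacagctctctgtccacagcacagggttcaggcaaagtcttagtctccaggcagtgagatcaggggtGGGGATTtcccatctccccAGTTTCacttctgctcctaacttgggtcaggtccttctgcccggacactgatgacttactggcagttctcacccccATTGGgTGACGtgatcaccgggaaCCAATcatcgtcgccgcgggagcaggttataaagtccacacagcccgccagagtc
H2-T23: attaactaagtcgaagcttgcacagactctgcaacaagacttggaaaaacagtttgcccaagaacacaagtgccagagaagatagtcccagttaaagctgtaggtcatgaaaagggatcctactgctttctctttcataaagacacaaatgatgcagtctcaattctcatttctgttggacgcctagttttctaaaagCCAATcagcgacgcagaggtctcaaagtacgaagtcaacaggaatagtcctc

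H2-K1 and H2-D1 held all 4 motifs, with the first bases of kB and the following AGTTTC 19 bases apart and that of TGACG 51 bases further in both. H2-Q4 held all 4 as well, with the same 19 bases and TGACG 82 bases further. That TGACG lies after ATTGG, whereas in H2-K1 and H2-D1 it lies before it, so the match is not at the same place. H2-T23 held ATTGG alone. So did H2-Q2, and H2-Q10 held AGTTTC alone. Both of these Q rows had at most a few counts in bEnd.3 and counts in every UV2 library. H2-Q7 and H2-T22 held all 4 motifs and were higher in UV2. The printed windows are thus examples only, and a relation of motifs to the difference between the lines was not tested. Of 31 members with a promoter entry, 10 held kB, 15 AGTTTC, 12 TGACG and 28 ATTGG, and 6 held all 4: H2-K1, H2-D1, H2-Q4, H2-Q7, H2-T22 and H2-M10.1. Among 32851 promoter windows of the same length, 2.76% held GGGGATT, 13.5% AGTTTC, 17.8% TGACG, 33.9% ATTGG and 0.037% (12 windows) all 4. These windows are counted per entry, while members were counted per gene. They include the windows of the members, also among the 12. GGGGATT followed by GG would also hold ATTGG, which does not occur in the printed windows. H2-M10.1 had 0 counts in every library, so holding the 4 motifs in any arrangement went with no one level. In H2-M10.1, kB, AGTTTC and TGACG match on the other strand, with kB and AGTTTC 132 bases apart. In H2-T22, kB matches on the other strand and lies after AGTTTC. Neither has the arrangement of H2-K1 and H2-D1. A match is a description of letters, and binding was not measured.

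Genes that serve class I display were mostly higher in UV2 too. Of 14 genes of a class I processing list, 10 were higher, 2 lower and 2 not called, with a median log2 fold change of 0.72; 71.4% were thus higher, against 33.9% of all genes. B2m, the light chain, had 540.1, 488 and 561 CPM in bEnd.3 and 1232, 1155 and 1301 CPM in UV2, a difference of 1.21 on the log2 scale (SE 0.08, adjusted p = 1.08e-05). Among called members the chaperone gene Calr had the highest log2 fold change, 1.42 (SE 0.13), and the immunoproteasome gene Psmb8 the lowest, -0.60 (SE 0.10). The light chain thus differed less than the heavy chains H2-K1 and H2-D1 did, as fitted values side by side with no test of the difference. In bEnd.3 the H2-D1 and B2m rows had like CPM, and in UV2 H2-D1 was the higher, though CPM of genes of unequal length is no ratio of molecules.

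Regulators of H2 genes were measured as well. Of 14 listed, 10 were higher in UV2, 1 lower and 3 not called, with a median log2 fold change of 0.45. That is 78.6% called, beside 67.1% of all genes tested, and 71.4% higher, beside 33.9%, and it includes Ciita. Nlrc5, the class I coactivator, had 1.17, 1.02 and 1.66 CPM in bEnd.3 and 53.3, 44.5 and 60.5 CPM in UV2, a difference of 5.34 on the log2 scale (SE 0.20, adjusted p = 5.14e-07), the highest in the list. Rfx5, a subunit of the RFX complex on which both coactivators assemble, was the lower one, at 62.3 ± 6.30 CPM in bEnd.3 and 30.3 ± 1.34 CPM in UV2, a difference of -1.04 on the log2 scale (SE 0.09). Of 7 genes that handle class II or its peptides, 4 were tested and 3 were higher, beside 33.9% of all genes tested. The protease gene Lgmn had the highest log2 fold change, 4.87 (SE 0.18), and March8, a ubiquitin ligase gene, was lower at -0.35 (SE 0.08).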

How the data were processed

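Poly(A) RNA of 6 libraries, 3 per line, was sequenced from stranded libraries, per the labels' protocols. The authors deposited expected counts per gene symbol, and Trim Galore, STAR, RSEM and mm10 stand in the submitters' processing notes. Versions, annotation, read length and strand setting were not given in the sources used here. Expected counts were rounded and genes kept by filterByExpr (12720 of 24411), scaled by TMM and fitted with edgeR 4.0.16 in R 4.3.3, group as the only term. Each SE was taken from the log2 fold change and the test statistic. The fit was tested on simulated data. Total counts, DESeq2 1.42.0 and its size factors, other filters, a replicate block, and leaving out each library were alternatives. Members and lists were chosen with earlier results of these data known. Values per library are given for members that were called or reached 1 CPM in the higher line. From each list the highest and lowest called genes are named, and always B2m, Nlrc5, Ciita and Cd74. Other named genes were chosen after their values were seen.

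RefSeq (GRCm38.p6) placed 38 members and GENCODE M21 1 more. H2-L, H2-Q8, H2-Q9 and H2-T9 were not placed. Promoters were from RefSeq and transcripts (39 members) from GENCODE M21. Coding sequences were aligned with Biopython 1.88. The chi-square per degree of freedom between replicates was 11.3 to 38.4, far above sampling noise. BALB/c alleles of H2 were not used here.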

Additional observations from a re-analysis of the deposited data

How the results depend on the processing

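Beside the main counts of 20 H2 genes higher and 1 lower in UV2, the alternatives gave 19 to 24 higher and 1 lower; the lower one was H2-T24 in each. No H2 gene changed sign under any alternative run. Calls of H2-M5, H2-T23, H2-Q9 and H2-T10 changed side, as given beside each gene. The log2 ratio of the summed class I level, 2.10, was 2.03 with total counts and 2.39 over H2-K1 and H2-D1 alone. Replicate numbers did not pair the libraries by the rule used: correlations of same-numbered deviations were 0.0854, 0.161 and 0.2, although each library correlated best with its own number. With the replicate number as a block, 20 H2 genes were higher and 1 lower, and 8682 genes were called in place of 8538. Depth limits the class II rows, H2-M5 and H2-Q9, and the Q rows in bEnd.3, which rest on few counts.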
